A study of Mus musculus with 17 samples.

Results

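The 9 genes described here belong to or answer to the Hippo pathway: the target genes Cyr61 and Ctgf, the co-activators Yap1 and Wwtr1, the DNA-binding factor Tead1 and its cofactor Vgll4, the kinases Lats1 and Lats2, and the scaffold Amotl2. They were taken by symbol from the deposited tables, where all 9 were present among 36293 genes of the bulk nuclear RNA-seq and among 37608 genes of the single-nucleus tables. Measured values entered this choice. Cyr61 was included for its lower level in stressed mice in the bulk RNA, and Vgll4 for its lower level in nuclei of layer 2/3 excitatory neurons, so both of those values are given as descriptions and support nothing.

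In the Hippo pathway, the MST kinases (Stk3 and Stk4) activate the Lats kinases, which phosphorylate Yap1 and Wwtr1 (TAZ) and so keep them out of the nucleus. When the Lats kinases are inactive, Yap1 and Wwtr1 enter the nucleus, bind Tead factors and switch on genes such as Cyr61 and Ctgf, while Vgll4 competes with Yap1 for the Tead surface and dampens this output. In brain the pathway is best known for controlling the growth of neural progenitors and the state of astrocytes, and Cyr61 is also an immediate-early gene that rises briefly after growth factor or activity signals.

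The mice were male C57BL/6 animals (C57BL/6J in the Methods) exposed to chronic unpredictable stress (CUS), a schedule of 3 different stressors a day over 12 days, or control animals that were handled daily. Control mice lived in a separate room from CUS mice, so housing room and treatment cannot be told apart. Total nuclear RNA of the medial prefrontal cortex (mPFC) was sequenced in bulk from 4 control and 5 CUS mice at postnatal day 90. Nuclei of the neocortex from another 4 control and 4 CUS mice, at postnatal day 80, went through sNucDrop-seq, in which the RNA of single nuclei is tagged in droplets and counted as unique molecular identifiers (UMIs). The labels place tissue collection 24 h after the final stressor, whereas the Methods place it after the last behavioral test for the bulk mice.

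The bulk libraries held 26188825 to 30525015 reads assigned to genes. The single-nucleus tables held 40000 barcodes, of which 26698 nuclei were kept, 1935 to 4235 per mouse, with a median of 2010 UMIs and 1274 genes per nucleus. Although the tissue is labelled cortex, 1792 of the nuclei carried striatal markers, and the bulk libraries held striatal markers beside those of the cortical layers, of which all 6 of the layer 2/3 list passed the count filter. Of 26677 distinct barcodes, 20 occurred in more than 1 mouse. Nuclei were grouped into 32 classes by clustering without the 9 genes; 19 classes were named after markers, with the ending "-like", and 25 classes with over 200 nuclei were compared between CUS and control. The animals are counted as separate samples because each label names its own replicate. Whether mice shared a cage or preparation is not in the labels, and neither is the batch of each mouse. Mice were group housed per the Methods, so mice of a group may have shared a cage. The Methods describe 2 batches of nuclei, with both groups in each, and a strong batch effect that the study's own test modelled; no test of the nuclei here could include it.

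Tead factors bind a motif with the core GGAATG, which reads CATTCC on the opposite strand. RefSeq promoter sequences (GRCm38.p6) were matched for 7 of the 9 genes, Cyr61 under its current symbol Ccn1, and the core lay within the 250 bases before an annotated start, on either strand, in 5 of them. Across the same table, 14.4% of 27025 genes held it. The Cyr61 window, chr3:145649986-145650235 on the minus strand, is shown whole because Cyr61 had the largest bulk difference of the 9 genes; it is written 5′ to 3′ along the gene with the core in capitals, 103 bases before the start.
Cyr61: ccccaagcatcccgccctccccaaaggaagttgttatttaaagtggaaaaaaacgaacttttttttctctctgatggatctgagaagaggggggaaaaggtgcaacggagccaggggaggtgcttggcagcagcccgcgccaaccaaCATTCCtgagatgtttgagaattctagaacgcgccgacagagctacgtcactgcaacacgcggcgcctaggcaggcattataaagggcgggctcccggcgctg

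The other 4 genes with a match are shown with 20 bases on each side of the core, again in capitals, so that the surroundings can be compared. The Vgll4 stretch is chr6:114969260-114969305 on the minus strand, 82 bases before the start. The Yap1 stretch is chr9:8004712-8004757 on the minus strand, 141 bases before the start, and the Wwtr1 stretch is chr3:57576021-57576066 on the minus strand, 136 bases before the nearer of its annotated starts. The Amotl2 stretch is chr9:102717719-102717764 on the plus strand, 65 bases before the start.
Vgll4: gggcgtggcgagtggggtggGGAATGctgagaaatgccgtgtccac
Yap1: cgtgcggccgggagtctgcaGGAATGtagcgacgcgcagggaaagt
Wwtr1: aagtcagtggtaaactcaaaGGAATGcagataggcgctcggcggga
Amotl2: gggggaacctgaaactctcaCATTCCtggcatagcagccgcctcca
The core was absent from the Lats1 and Lats2 windows. Ctgf and Tead1 had no promoter entry. A cyclic AMP response element (TGACGTCA), an AP-1 site (TGANTCA), a YY1 core (AANATGGC) and the SRF CArG box were searched on both strands and had no match in the 7 genes, against 1.77%, 7.82%, 4.49% and 1.62% of the 27025 genes in the table. Occupancy of these sites was not measured here.

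Cyr61 (CCN1) and Ctgf (CCN2) encode secreted matrix-associated proteins that bind integrins, and both serve as readouts of Yap1 and Tead activity. In mm10 Cyr61 lies at chr3:145646976-145649981 on the minus strand and Ctgf at chr10:24595442-24598683 on the plus strand. In the bulk mPFC RNA, Cyr61 stood at 4.49, 5.56, 3.06 and 4.37 CPM (reads of a gene relative to its library's total, scaled by TMM factors) in control mice 1 to 4 and at 1.31, 1.58, 1.04, 1.19 and 1.31 CPM in CUS mice 1 to 5. Every CUS mouse lay below every control mouse. These values rest on 82 to 165 reads per control library and 31 to 40 per CUS library. The mean was 4.37 ± 1.02 CPM (SD, n = 4) in control and 1.29 ± 0.196 CPM (SD, n = 5) in CUS, a log2 fold change of -1.77 (SE 0.18, 95% interval -2.20 to -1.34), or 3.41-fold lower. Cyr61 ranked 3 by p among the 18394 genes tested; because this contrast chose it, the rank is a description.

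Ctgf, the other target, was at 5.17, 7.51, 7.13 and 11.34 CPM in control mice 1 to 4 and at 4.69, 5.20, 5.38, 6.69 and 6.67 CPM in CUS mice 1 to 5. The groups overlapped, since control mouse 1 lay among the CUS mice and control mouse 4 was the highest of all. Its log2 fold change was -0.45 (SE 0.19, 95% interval -0.89 to 0.00) and did not pass the test (edgeR quasi-likelihood test, Benjamini-Hochberg adjusted p = 0.195). Without control mouse 4 it was -0.20 (adjusted p = 0.493), and without control mouse 1 it was -0.60 (adjusted p = 0.070).

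Across all 9 genes, 9 had a fitted log2 fold change below 0 in bulk and 1, Cyr61, passed an adjusted p of 0.05 (5 had an unadjusted p under 0.05, as had 3954 of the 18394 genes tested), while 3.29% of all genes tested passed it in either direction and 2.13% as lower in CUS. The median of the 9 was -0.21, beside 0.006 over all genes tested, of which 8952 were fitted lower and 9442 higher. Groups without overlap were found for 1 of the 9 genes and for 8.76% of all genes. Cyr61, which this contrast chose, is the gene called and the gene without overlap, and it is among the 5 with an unadjusted p under 0.05. In bulk tissue, fewer cells of a type and less RNA per cell cannot be told apart.

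**Figure D1:**
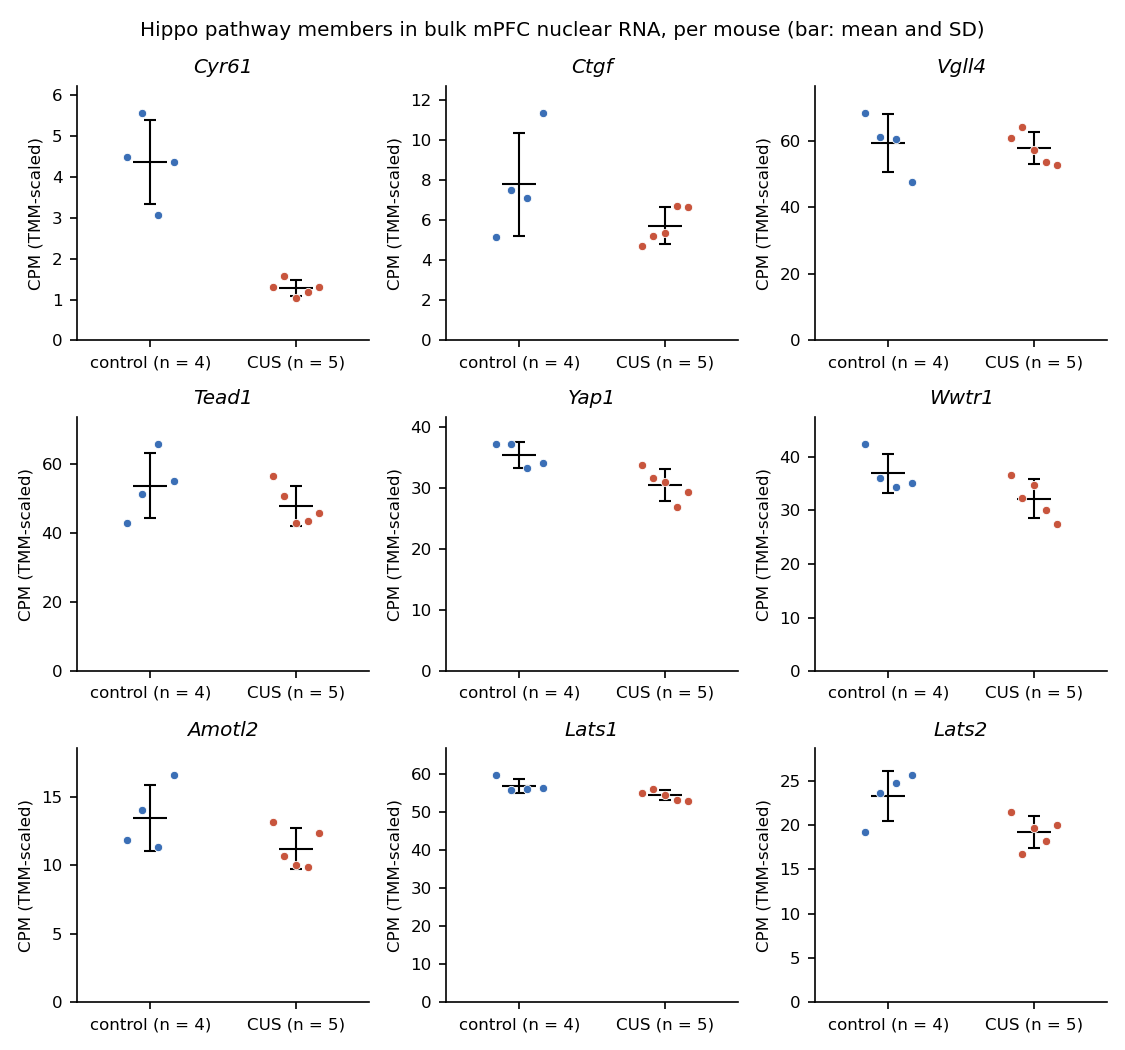
Bulk mPFC levels of the 9 genes in TMM-scaled CPM on the vertical axes, each panel on its own scale starting at 0, with a point per mouse, 4 control and 5 CUS, and a bar for each group mean and SD. The CUS points of Cyr61 sit between 1.04 and 1.58 CPM, all below the control points at 3.06 to 5.56; the groups of the other 8 genes overlap.

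The co-activators Yap1 and Wwtr1 (TAZ) carry the signal into the nucleus but do not bind DNA themselves. Yap1 was at 37.15, 37.15, 33.25 and 34.01 CPM in control mice and at 33.74, 31.60, 31.02, 26.81 and 29.42 CPM in CUS mice. CUS mouse 1 overlapped the control range and the other 4 CUS mice lay below it. Yap1 had a log2 fold change of -0.21 (SE 0.07, 95% interval -0.38 to -0.05, edgeR adjusted p = 0.105), from 35.4 ± 2.06 CPM (SD, n = 4) to 30.5 ± 2.59 CPM (SD, n = 5). Wwtr1 was at 42.32, 35.97, 34.37 and 35.06 CPM in control mice and at 36.58, 32.23, 34.82, 29.99 and 27.42 CPM in CUS mice, with overlap between the groups. Its log2 fold change was -0.20 (SE 0.09, edgeR adjusted p = 0.220). It was -0.13 without control mouse 1 and -0.25 without CUS mouse 1.

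Tead1 is the DNA-binding partner that brings Yap1 and Wwtr1 to their target genes. It was at 42.81, 51.16, 65.57 and 54.88 CPM in control mice and at 56.36, 50.52, 42.76, 43.50 and 45.69 CPM in CUS mice, so the lowest control mouse and the lowest CUS mouse were nearly level. The log2 fold change was -0.17 (SE 0.11, edgeR adjusted p = 0.421); it was -0.064 without control mouse 3 and -0.26 without control mouse 1. The other Tead factors did not pass the test either, with log2 fold changes of 0.03 for Tead2 (adjusted p = 0.950), -0.44 for Tead3 (0.166) and 0.06 for Tead4 (0.850); the sign for Tead2 turned when TMM factors were left out (-0.003).

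Vgll4 has no DNA-binding domain and acts by occupying Tead factors in place of Yap1. In bulk, which did not choose it, Vgll4 was at 68.20, 61.17, 60.49 and 47.48 CPM in control mice and at 60.77, 63.99, 57.26, 53.62 and 52.64 CPM in CUS mice. The lowest and the highest of the 9 mice were both control mice. Vgll4 thus had a log2 fold change of -0.04 (SE 0.09, 95% interval -0.26 to 0.18, edgeR adjusted p = 0.844), from 59.3 ± 8.64 CPM (SD, n = 4) to 57.7 ± 4.78 CPM (SD, n = 5). Of its relatives, Vgll3 had a log2 fold change of 0.33 (adjusted p = 0.268), while Vgll1 and Vgll2 had 0 to 3 reads per library and were not tested.

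The kinases Lats1 and Lats2 phosphorylate Yap1 and Wwtr1, and Lats2 is itself a target gene that feeds back on the pathway. Lats1 was at 59.71, 55.74, 56.09 and 56.36 CPM in control mice and at 55.12, 56.19, 54.50, 53.29 and 53.05 CPM in CUS mice. Its log2 fold change was -0.07 (SE 0.05, 95% interval -0.18 to 0.05, edgeR adjusted p = 0.462). Lats2 was at 19.24, 23.58, 24.74 and 25.63 CPM in control mice and at 21.45, 16.75, 19.68, 18.17 and 20.06 CPM in CUS mice. Control mouse 1 lay inside the CUS range and the other control mice lay above it. Lats2 had a log2 fold change of -0.28 (SE 0.09, 95% interval -0.49 to -0.06, edgeR adjusted p = 0.106); without control mouse 1 it passed the test (adjusted p = 0.0316).

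Amotl2 belongs to the angiomotins, scaffolds at cell junctions that hold Yap1 and Wwtr1 outside the nucleus, and it too is a target gene. It was at 11.84, 14.01, 11.31 and 16.56 CPM in control mice and at 13.18, 10.64, 10.03, 9.86 and 12.39 CPM in CUS mice, with overlap. The log2 fold change was -0.26 (SE 0.12, edgeR adjusted p = 0.237). It was -0.14 without control mouse 4 and -0.34 without control mouse 3.

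The other genes of the pathway were read from lists of 67 symbols, chosen with earlier results of these data known, of which 66 were in the bulk tables and 61 were tested. Of these 61 genes, 42 were fitted lower and 19 higher in CUS, with a median log2 fold change of -0.09. The 3 that passed the test were Cyr61, Amot and Dchs1, all lower. Over all genes tested, 3.29% passed in either direction and 2.13% as lower. Cyr61 was chosen for this contrast, so 2 of the 3 calls, Amot and Dchs1, are apart from that choice. As 2 of the 61 genes, these calls are near the share of all genes that passed in either direction. An unadjusted p under 0.05 was found for 17 of the 61, Cyr61 included, beside 3954 of the 18394 genes tested. Groups without overlap were found for 4 of the 61, Cyr61, Amot, Dchs1 and the CCN gene Wisp1 (higher in CUS), beside 8.76% of all genes. Amot, the founding angiomotin, was at 17.4 to 19.4 CPM in control mice and 14.2 to 15.0 CPM in CUS mice without overlap, a log2 fold change of -0.31 (edgeR adjusted p = 0.016). Dchs1, a giant protocadherin that is the ligand of Fat4 upstream of the kinases, was at 12.3 to 15.5 CPM in control mice and 10.7 to 11.9 CPM in CUS mice without overlap, a log2 fold change of -0.33 (edgeR adjusted p = 0.038). With the replicate number as a block, the adjusted p of Amot was 0.065 and that of Dchs1 was 0.096, and Cyr61 alone of the lists passed. Leaving out control mouse 2 also ended both calls (adjusted p = 0.062 for Amot and 0.120 for Dchs1), as did leaving out CUS mouse 4 (0.053 and 0.106). Dchs1 further failed the test without control mouse 4 or without CUS mouse 1, 3 or 5 (0.070 to 0.092).

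By role, the kinase core had 14 genes fitted lower and 7 higher of 21 tested, with a median log2 fold change of -0.03; none passed the edgeR test and 2 had an unadjusted p under 0.05, a smaller share than the 3954 of 18394 over all genes. Of 12 junction and scaffold genes, 10 were fitted lower and 2 higher (median -0.20), 2 passed the test, Amot and Dchs1, beside 3.29% of all genes, and 6 had an unadjusted p under 0.05. The 8 co-activators and DNA-binding partners split 5 lower to 3 higher (median -0.10), with none past the test and 3 at an unadjusted p under 0.05, again beside 3954 of 18394. Of 21 YAP and TAZ target genes, 15 were fitted lower and 6 higher (median -0.14), Cyr61 passed and 6 had an unadjusted p under 0.05. In the CCN family, 3 genes were fitted lower and 1 higher, 3 of them at an unadjusted p under 0.05: beside Cyr61 and Ctgf, Nov (CCN3) had a log2 fold change of -0.21 (adjusted p = 0.281) and Wisp1 (CCN4) of 0.43 (adjusted p = 0.116), whereas Wisp2 and Wisp3 had 1 to 11 reads per library and were not tested. Without control mouse 3 both Nov (adjusted p = 0.025) and Wisp1 (0.046) passed. Over all lists, the likelihood ratio test of edgeR and DESeq2 each called 5 genes, while their calls over all 18394 genes rose from 606 to 1330 and 1402.

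**Figure D2:**
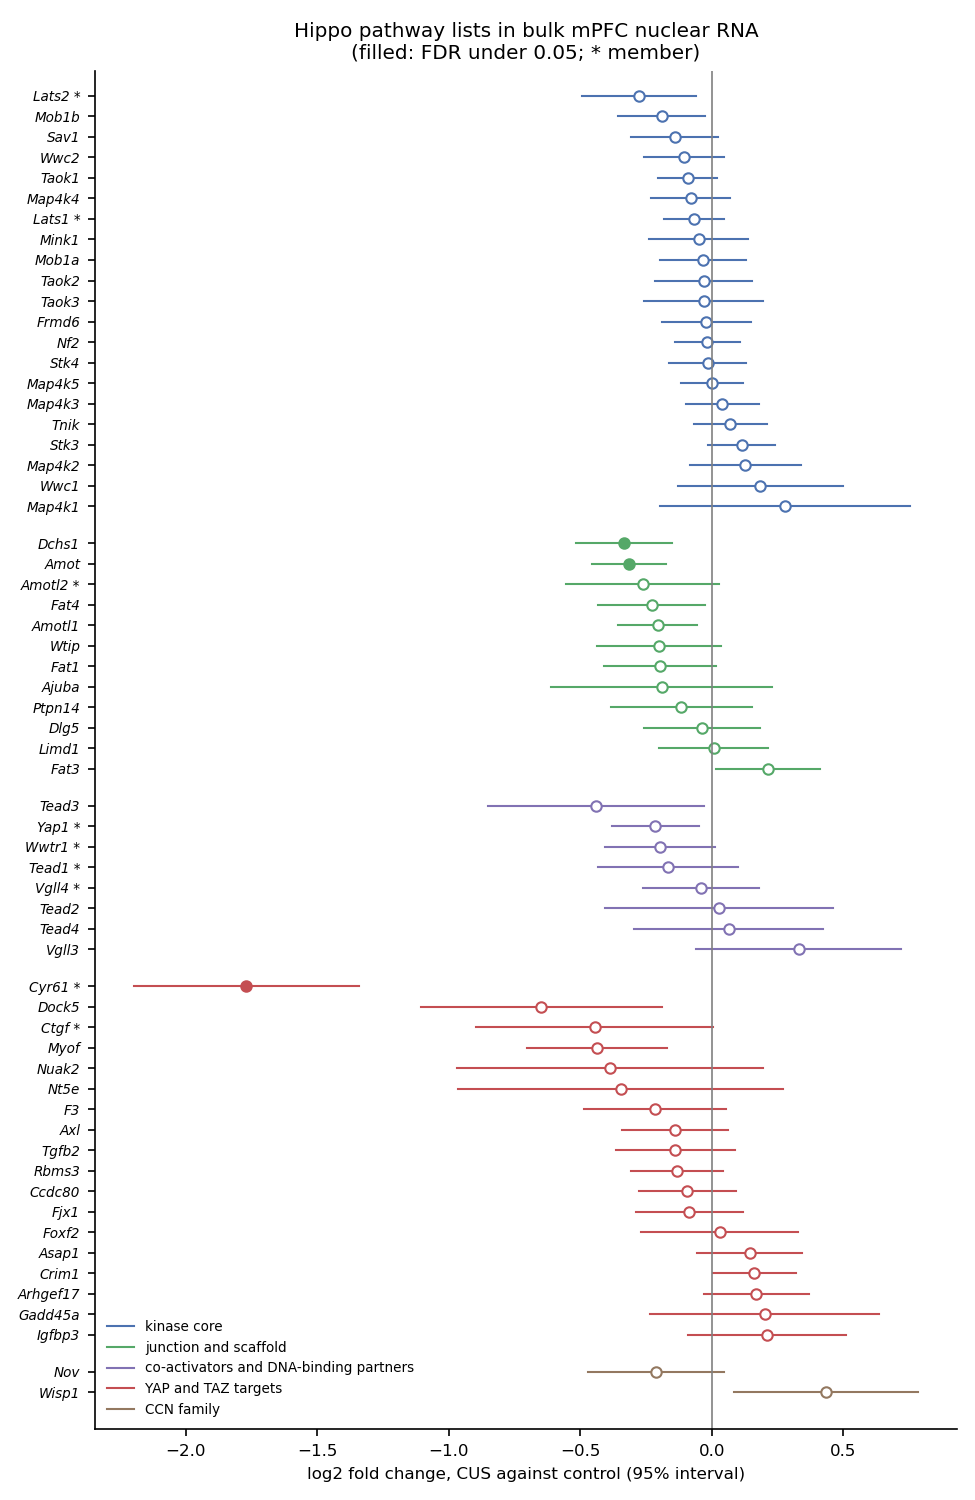
Log2 fold change (CUS against control, bulk mPFC) with its 95% interval on the horizontal axis for each tested pathway gene, 1 line per gene, coloured by list; a gene of more than 1 list is drawn once, asterisks mark the 9 genes and filled points an adjusted p under 0.05. The filled points are Cyr61, Amot and Dchs1, and Cyr61 at -1.77 lies far to the left of the rest.

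Markers of astrocytes, oligodendrocyte lineage cells and fibroblasts were mostly fitted lower in CUS in bulk, whereas microglial markers were not (4 of 9 fitted lower, none past the edgeR test, 1 at an unadjusted p under 0.05, median log2 fold change 0.05). Over all genes tested, 8952 of 18394 were fitted lower and 3.29% passed the test in either direction. Of 11 astrocyte markers, 10 were fitted lower in CUS and 5 passed the test (Aqp4, Gja1, Gli3, Bmpr1b and Slc39a12), with a summed level of 770 to 942 CPM in control and 627 to 790 CPM in CUS mice. Fibroblast markers were fitted lower in 8 of 8 genes (Igf2 past the test), with summed levels of 47.7 to 70.2 and 31.2 to 56.9 CPM, and oligodendrocyte precursor markers in 5 of 6 genes (Lhfpl3 past the test), at 331 to 408 and 259 to 319 CPM. Markers of mature oligodendrocytes were fitted lower in 11 of 11 genes (St18 past the test), at 341 to 776 and 359 to 452 CPM, and those of newly formed ones in 6 of 6 (Tcf7l2 past the test), at 172 to 180 and 156 to 172 CPM. Endothelial markers were fitted lower in 2 of 10 genes, at 484 to 625 and 562 to 632 CPM. Of the deep-layer lists, 5 of 6 layer 6 markers, 4 of 4 layer 6b markers (median -0.15) and 5 of 6 claustrum markers (Nr4a2 past the test) were also fitted lower, whereas 5 of 6 layer 5 markers (Ldb2 past the test, summed level 589 to 812 CPM in control and 837 to 922 CPM in CUS mice) and 4 of 5 layer 5/6 markers (median 0.14) were fitted higher. Of the choroid plexus list 2 genes were tested, both were fitted lower (median -1.43) and Clic6 passed, with a summed level of 2.28 to 6.11 CPM in control and 1.82 to 2.27 CPM in CUS mice. Of 9 striatal markers, 8 were fitted lower (median log2 fold change -0.77), while Pde10a was higher and passed the test. Their summed level went the other way from most of them, at 729 to 1192 CPM in control and 1229 to 1478 CPM in CUS mice. In the remaining lists, those fitted lower were 2 of 6 layer 2/3, 5 of 7 layer 4, 3 of 6 Tshz2 (Angpt1 past the test) and 2 of 8 mural markers. Among interneuron lists they were 3 of 5 parvalbumin (Myo5b past the test), 2 of 5 somatostatin, 4 of 6 Vip and 2 of 6 Ndnf markers. In the Ndnf list, Ndnf and Lamp5 passed the test, 1 lower and 1 higher. The part of these marker shifts in the values of the 9 genes was not tested.

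In the nuclei, the 9 genes were sparse: all kept nuclei held 3796 UMIs of Vgll4, 2760 of Lats1, 1646 of Tead1, 925 of Yap1, 766 of Ctgf, 434 of Wwtr1, 320 of Amotl2, 276 of Cyr61 and 222 of Lats2. Levels per class below are CPM of the UMIs summed per mouse, averaged over the 8 mice, with the SD. Class levels are a description, and in the order of each gene's 25 classes, all 24 pairs of neighbouring classes overlapped in their mice. Droplet counts can include free RNA from other nuclei, so low levels carry that background.

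Among the 25 classes with over 200 nuclei, Cyr61 had its highest levels in OPC-like nuclei (oligodendrocyte precursors, 30.4 ± 21.6 CPM, SD, n = 8), Astrocyte-like nuclei (25.04 ± 18.3 CPM), Ex_L6-like nuclei (layer 6 excitatory neurons, 16.9 ± 13.2 CPM) and an unnamed cluster led by Thsd7b (cluster 16, 15.1 ± 19.8 CPM). The SD between mice was large beside the mean in each and exceeded it in cluster 16. By number of UMIs, 105 of 276 came from Ex_L6-like nuclei. No UMI was found in the 4 classes of inhibitory neurons, 0 of 6331903 UMIs from 2858 nuclei, which allows up to 0.474 CPM, nor in Striatal-like nuclei, 0 of 4086532 UMIs, which allows up to 0.734 CPM. The limit for the 0 UMIs in mature oligodendrocytes (Oligo_Opalin-like) was 3.22 CPM. These limits cover counting error only. A small class of 77 Fibroblast-like nuclei reached 134 ± 200 CPM on 14 UMIs.

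Ctgf was concentrated in cluster 16, which held 535 of its 766 UMIs at 292 ± 106 CPM (SD, n = 8). All 8 mice of that cluster lay above all 8 mice of 23 of the other 24 classes; the exception, cluster 26, overlapped on 5 UMIs. The Fibroblast-like nuclei stood at 160 ± 157 CPM, Ex_Tshz2-like nuclei at 16.3 CPM and Ex_L6-like nuclei at 12.0 CPM. In OPC-like nuclei, the first class for Cyr61, no UMI of Ctgf was found, 0 of 515576 UMIs, which allows up to 5.82 CPM.

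Tead1 was highest in Astrocyte-like nuclei at 145 ± 45.2 CPM, where all 8 mice lay above those of 20 other classes, and lowest in Ex_L5-like nuclei at 8.26 CPM, a ratio of 17.5. Wwtr1 was also highest in Astrocyte-like nuclei, at 80.6 ± 31.3 CPM, above all mice of 23 other classes. Yap1 reached 34.3 ± 11.7 CPM in Astrocyte-like nuclei, and its first place, cluster 26, rested on 6 UMIs. Yap1 was at 25.1 CPM in cluster 16 and at 5.25 to 22.8 CPM in the named excitatory classes, against 0.00 to 1.88 CPM in the 4 inhibitory classes and 1.38 CPM in cluster 19. Striatal-like nuclei (13.3 CPM), cluster 11 (7.08 CPM) and cluster 24 (5.69 CPM) lay within the range of the named excitatory classes.

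Vgll4 was detected in every class, from 127 ± 35.6 CPM in Oligo_Opalin-like nuclei through 99.9 ± 18.5 CPM in Ex_L4-like and 82.7 ± 22.1 CPM in Ex_L2/3_Enpp2-like nuclei down to 12.7 ± 5.33 CPM in Ex_L5-like nuclei. Lats1 ranged between 30.5 and 64.2 CPM, leaving out cluster 26 at 18.9 CPM on 8 UMIs. Amotl2 was highest in Oligo_Opalin-like (46.5 ± 18.2 CPM), Astrocyte-like (33.9 CPM), OPC-like (32.8 CPM) and Inh_Vip-like nuclei (26.2 CPM), and Lats2 did not exceed 13.6 CPM in any of the 25 classes.

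**Figure D3:**
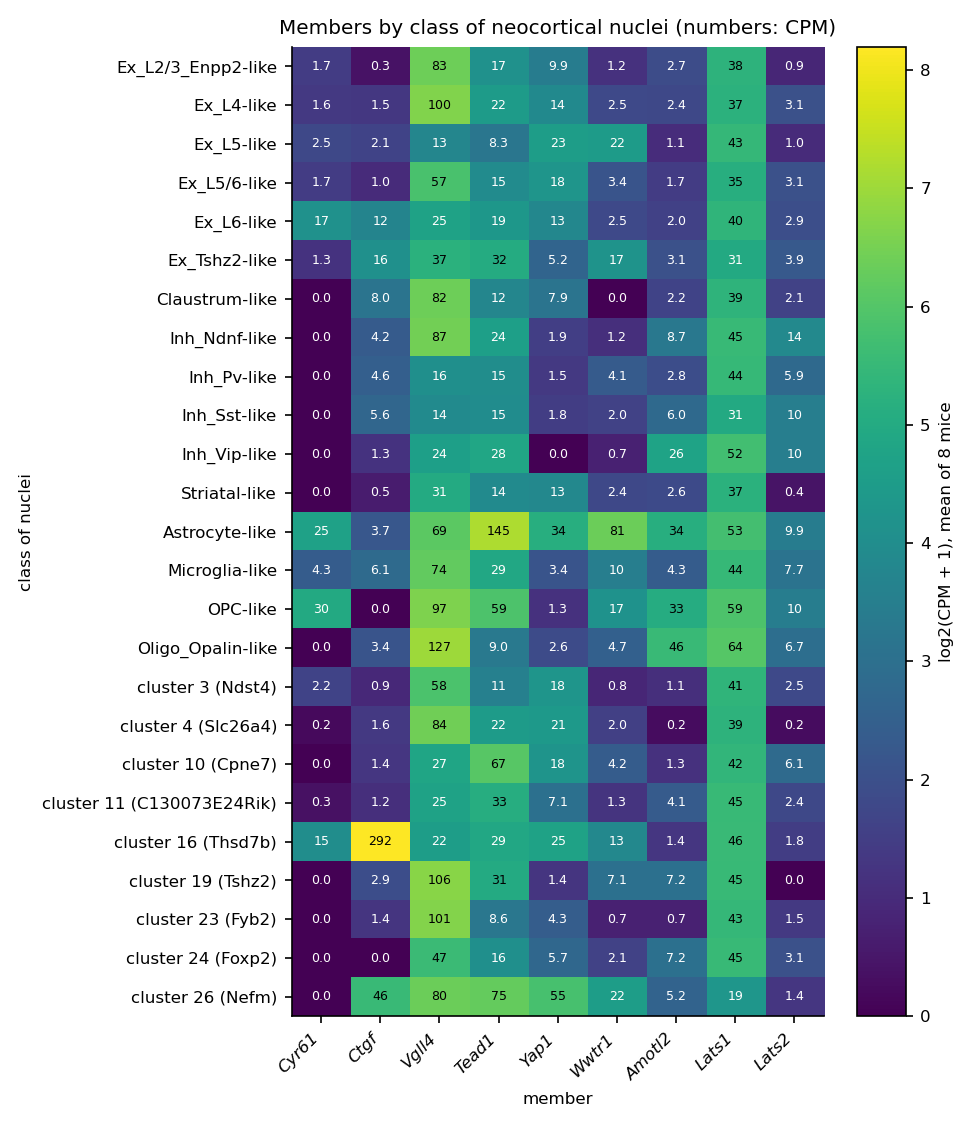
Levels of the 9 genes, from left to right, in the 25 classes with over 200 nuclei, from top to bottom; the number in a cell is the mean CPM over 8 mice and the colour is log2(CPM + 1). Astrocyte-like nuclei are the highest class for Tead1 and Wwtr1, cluster 16 for Ctgf and Oligo_Opalin-like nuclei for Vgll4 and Amotl2.

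By the Pearson correlation of log2(CPM + 1) over the 25 classes, the genes most like Cyr61 were Xylt1 (0.760), Gng12 (0.739) and 4833420G17Rik (0.727), among 8978 genes with at least 1000 UMIs. Those most like Ctgf were Bri3 (0.702), Pls3 (0.686) and Cyth2 (0.642). Eif4enif1 (0.694), Foxo3 (0.684) and Mgat5 (0.680) came closest to Vgll4, and Cpe (0.804), Laptm4a (0.757) and Cnpy2 (0.743) to Tead1. The classes share mice, libraries and depth, so these correlations only describe. Cyr61 (276 UMIs) and Ctgf (766 UMIs) lay under the 1000 UMIs asked of the other genes, and Cyr61 had no UMI in 12 of the 25 classes. Each gene named was picked as highest among all genes compared, and how high such a pick falls by chance was not tested.

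The nuclei gave a test of Cyr61 in mice that had not chosen it. Summed over all nuclei, Cyr61 was at 1.47, 1.82, 7.47 and 4.54 CPM in control mice 1 to 4 and at 5.43, 3.85, 2.69 and 4.14 CPM in CUS mice 1 to 4. The CUS mice lay inside the control range, which spanned 1.47 to 7.47 CPM. The difference did not pass (exact permutation test, two-sided, p = 0.914). In a fit without the filter on low counts, the log2 fold change was 0.01 with a 95% interval of -0.65 to 0.66 (edgeR adjusted p = 0.992). That fit called 309 of 36464 genes, against 1 of 5018 with the filter. Its interval may be too narrow for mice this far apart. It was not set against the bulk value, which chose Cyr61. The nuclei came from the neocortex and from younger mice and were counted as UMIs, whereas the bulk counts were reads of total nuclear RNA from the mPFC.

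Ctgf in all nuclei was at 6.39, 12.09, 10.62 and 9.51 CPM in control mice and 14.09, 6.83, 13.04 and 14.57 CPM in CUS mice, with overlap (exact permutation test, two-sided, p = 0.314). In cluster 16, where most of it lay, Ctgf was at 177, 289, 269 and 201 CPM in control mice and at 446, 196, 354 and 390 CPM in CUS mice. CUS mouse 2 fell among the control mice and the other 3 CUS mice lay above them. This was a log2 fold change of 0.53 (SE 0.19, edgeR adjusted p = 0.924), from 234 ± 53.4 to 346 ± 107 CPM (SD, n = 4 each).

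By class, Cyr61 in Ex_L6-like nuclei was at 5.16, 3.40, 42.42 and 12.60 CPM in control mice and at 21.94, 27.89, 10.26 and 11.55 CPM in CUS mice. In Astrocyte-like nuclei it was at 62.18, 21.07, 23.44 and 25.59 CPM in control mice and at 22.88, 0.00, 36.59 and 8.87 CPM in CUS mice. Both overlapped, and over the 25 classes the smallest exact permutation p for Cyr61 was 0.257. Its mean was lower in CUS in 7 classes and higher in 6, and 12 classes held no UMI of it.

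**Figure D4:**
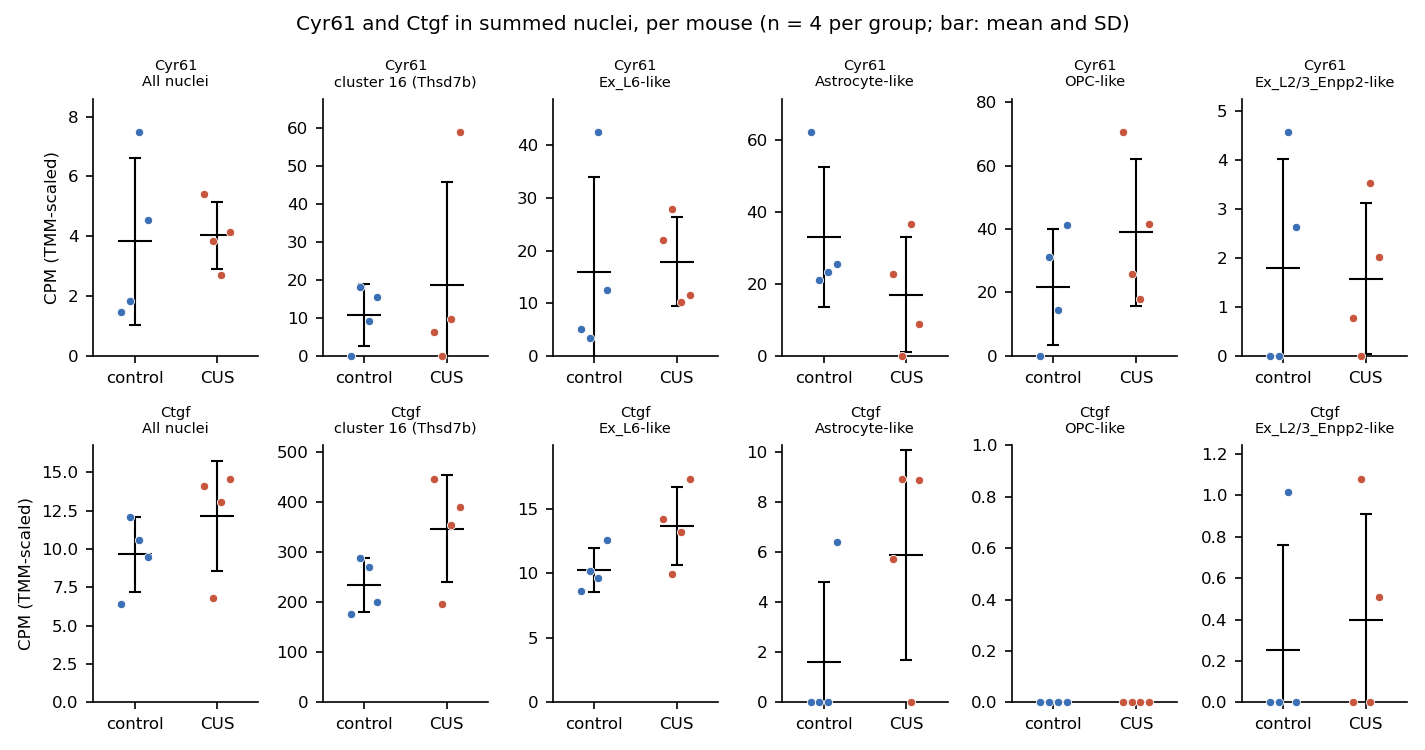
CPM of Cyr61 (upper panels) and Ctgf (lower panels) per mouse for all nuclei summed and 5 classes, with a point per mouse, 4 control and 4 CUS, and a bar for each group mean and SD. The control and CUS points overlap in every panel, and Ctgf is at 0 in all 8 mice in OPC-like nuclei.

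In the nuclei the filter on low counts left 2 of the 9 genes, Vgll4 and Lats1, in the sum over all nuclei, and neither passed the edgeR quasi-likelihood test at an adjusted p of 0.2, which 0.0199% of all genes tested passed. Neither passed the likelihood ratio test or DESeq2, and 1 of them, Vgll4, had an unadjusted p under 0.05. Vgll4 was at 66.7, 62.5, 59.7 and 72.2 CPM in control mice and at 54.5, 56.4, 41.9 and 45.1 CPM in CUS mice. All CUS mice lay below all control mice, as 4.70% of the genes tested did in either direction. The log2 fold change was -0.40 (SE 0.11, 95% interval -0.67 to -0.12, edgeR adjusted p = 0.589), from 65.3 ± 5.42 to 49.5 ± 7.07 CPM (SD, n = 4 each). The layer 2/3 nuclei that chose Vgll4 are part of this sum. The call changed with the filter (adjusted p = 0.129 without it) and without CUS mouse 2 (0.0676).

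Lats1 in all nuclei averaged 40.4 ± 2.95 CPM in control and 40.2 ± 4.31 CPM in CUS mice (SD, n = 4 each), a log2 fold change of -0.01 (SE 0.11, edgeR adjusted p = 0.973). The exact permutation test, which cannot go below 0.0286 with 4 against 4 mice, gave 0.0571 for Yap1, at 13.0 to 16.4 CPM in control and 11.9 to 13.7 CPM in CUS mice. It gave 0.314 for Tead1, 0.343 for Wwtr1, 0.457 for Amotl2 and 0.971 for Lats2.

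In Ex_L2/3_Enpp2-like nuclei, 3692 in all and 260 to 660 per mouse, Vgll4 was at 93.2, 109.7, 98.5 and 104.3 CPM in control mice and at 83.2, 64.7, 58.2 and 50.7 CPM in CUS mice. No CUS mouse reached the lowest control mouse. The mean was 101 ± 7.12 CPM in control and 64.2 ± 13.9 CPM in CUS mice (SD, n = 4 each), a log2 fold change of -0.67 (95% interval -1.05 to -0.30, 877 UMIs, edgeR adjusted p = 0.0713). This class chose Vgll4, so the value is a description; 0.969% of the genes tested in the class passed an adjusted p of 0.2, 0.522% as lower, and 5.57% had groups without overlap. The adjusted p rose past 0.2 without control mouse 2 (0.275), CUS mouse 3 (0.206) or CUS mouse 4 (0.319). Lats1, the other member tested there, had a log2 fold change of 0.11 (adjusted p = 0.846), and of 0.0079 to 0.19 when each mouse was left out.

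Of 18 pathway genes tested in the layer 2/3 class, Wwc1 also passed. Wwc1 (KIBRA) is a scaffold that activates the Lats kinases and is also found at synapses. It was at 66.4, 56.6, 56.9 and 85.8 CPM in control mice and at 147, 114, 89.1 and 110 CPM in CUS mice. Among all genes of the class, 0.447% passed as higher in CUS. All CUS mice lay above all control mice for Wwc1, although CUS mouse 3 and control mouse 4 were close. Wwc1 had a log2 fold change of 0.84 (SE 0.17, edgeR adjusted p = 0.0504), from 66.4 ± 13.7 to 115 ± 24.0 CPM (SD, n = 4 each). The adjusted p was 0.209 without control mouse 2 and 0.203 without CUS mouse 1. In bulk the log2 fold change of Wwc1 was 0.18 (edgeR adjusted p = 0.454) and the groups overlapped. Summed over all nuclei it was 0.32, also with overlap. In the sum over all nuclei, 20 pathway genes were tested, 10 were fitted lower and 10 higher, and none passed the edgeR test; 3 had an unadjusted p under 0.05, beside 416 of the 5018 genes tested, namely Vgll4, Tnik and Wwc1, each with an adjusted p of 0.589.

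Outside layer 2/3, Vgll4 was fitted in 11 further classes, which share the same mice. In these 11 classes, 8 fits were lower and 3 higher in CUS, with log2 fold changes of -0.74 in Claustrum-like nuclei (edgeR adjusted p = 0.740), -0.68 in cluster 4, led by Slc26a4 (0.425), -0.65 in cluster 3, led by Ndst4 (0.619), -0.42 in Oligo_Opalin-like nuclei (0.999) and -0.31 in Ex_L4-like nuclei (0.549). In Ex_L5/6-like nuclei it was -0.01 with a 95% interval of -0.64 to 0.62, and it ran from -0.43 to 0.025 under the other settings tried. Those settings include other clusterings, in which the class of this name is not the same set of nuclei. This class held 1031 nuclei here and 2498 at resolution 0.6. The fits that were higher, in cluster 19 (0.15), OPC-like (0.12) and Microglia-like nuclei (0.12), had 95% intervals with lower ends of -0.85, -1.05 and -1.35. No class but layer 2/3 passed. Without CUS mouse 2, clusters 4 and 3 did too (edgeR adjusted p = 0.095 and 0.186), as did cluster 4 with the replicate number as a block (0.132). The value in cluster 4 ran from -0.91 to -0.45 when each mouse was left out. Whether the layer 2/3 difference exceeded that of the other classes was not tested. Without a fit, the mean of Vgll4 was lower in CUS in 20 of the 25 classes, layer 2/3 included, and in Ex_L6-like nuclei, at 27.7 to 36.1 CPM in control and 12.9 to 25.03 CPM in CUS mice, the groups did not overlap. The classes share mice and a batch effect that was not fitted. Neither this count nor the groups without overlap were set against all genes of these classes, so both are descriptions.

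**Figure D5:**
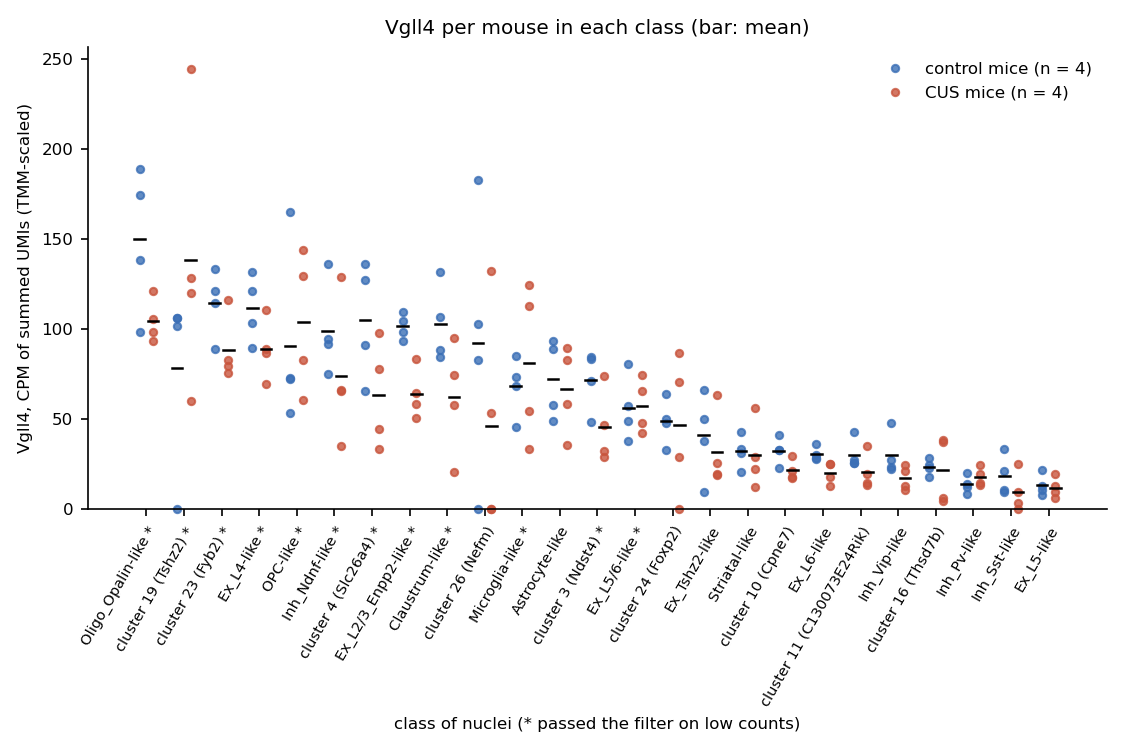
CPM of Vgll4 per mouse (vertical axis, TMM-scaled) in the 25 classes with over 200 nuclei (horizontal axis, from high to low level), with a point per mouse, 4 control and 4 CUS, and a bar for each group mean; asterisks mark the 12 classes in which Vgll4 was tested. In Ex_L2/3_Enpp2-like nuclei the CUS points at 50.7 to 83.2 CPM sit below the control points at 93.2 to 109.7 CPM.

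Over all classes, 27 pairs of a gene and a class were tested, 15 fitted lower and 12 higher. The 1 that passed was Vgll4 in layer 2/3, the pair for which Vgll4 was chosen, so this call is a description. An unadjusted p under 0.05 was found in 5 of the 27, beside 6898 of 116000 over all genes and classes. These were Vgll4 in 4 classes, layer 2/3 included, and Ctgf in cluster 16. Over all genes and classes, 0.0991% of the tests passed. Lats1 was fitted lower in 5 and higher in 6 of 11 classes, none past the test. Tead1 had log2 fold changes of -0.13 in Astrocyte-like nuclei (edgeR adjusted p = 0.974) and 0.48 in cluster 10 (0.810), and Wwtr1 of 0.15 in Astrocyte-like nuclei (0.978). Of 198 pairs too sparse to fit, 4 had groups without overlap: Vgll4 in Ex_L6-like nuclei, Yap1 (lower) and Lats1 (higher) in Striatal-like nuclei and Amotl2 (lower) in cluster 11. Many of the 198 pairs held few or no UMIs, so this share was not set against that of all genes, and the 4 pairs are a description.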

How the data were processed

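The authors deposited, per mouse, a table of read counts per gene for bulk nuclear RNA-seq and a table of UMI counts per gene and barcode for sNucDrop-seq; per the labels, reads were aligned to mm10, and STAR, edgeR and Seurat were used. The bulk kit keeps strand, but how strand was used in counting is not given in the sources used here. The 9 genes and all gene lists were chosen with earlier results of these data known. Named beside the 9 genes were every Tead, Vgll and CCN gene with at least 1 read, every listed pathway gene past a threshold in bulk, in all nuclei or in layer 2/3, the 3 genes most like Cyr61, Ctgf, Vgll4 and Tead1 across classes, and some of the markers past the threshold.

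Bulk counts were filtered with filterByExpr, leaving 18394 genes, scaled by TMM and tested with the quasi-likelihood test of edgeR 4.0.16 (R 4.3.3) at a Benjamini-Hochberg adjusted p of 0.05 over all genes. In the nuclei, barcodes with 600 to 5000 genes and at most 5% mitochondrial UMIs were kept, and 4788 (15.2%) called as doublets with scanpy 1.11.5 (Scrublet, score over 0.2) were removed. Clusters (Seurat 5.3.0, 2000 variable genes less the 3 of the 9 genes found among them (Cyr61, Ctgf and Tead1), 50 principal components, resolution 1.0) were named from markers. A cluster stayed unnamed where no marker list had enough enriched and leading markers, or where the marker that gives the name was not enriched. Class names are thus rebuilt, not the authors'. UMIs were summed per mouse and class and tested as above at an adjusted p of 0.2, for genes whose UMIs exceeded 10% of the nuclei. Genes under this filter were compared with an exact permutation test, two-sided. The batch of each mouse is not in the labels and was not fitted. On simulated data with 200 genes changed by 1 on the log2 scale, the bulk test recovered 164 (82.0%) with 14 false calls among 18394 genes and the layer 2/3 test 199 (99.5%) with 41 false calls among 5367. The simulated counts held no batch effect and only genes past the count filter, which in layer 2/3 left 2 of the 9 genes. Recovery for the others was not tested. Nor was recovery of changes smaller than 1 on the log2 scale. All of the 9 genes but Cyr61 had smaller values in bulk, as had Vgll4 in layer 2/3. Replicate numbers were not taken to pair mice. Other settings tried were DESeq2 1.42.0, edgeR's likelihood ratio test, no TMM factors, no count filter, a replicate block, other nucleus filters and resolutions, and leaving out each mouse.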

Additional observations from a re-analysis of the deposited data

Results flagged for a closer look

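In 4 groups of mice, 1 mouse lay far from the others by Dixon's criterion, out of 90 groups checked, where chance gives about 1 in 20, or 4.5. In bulk, Lats1 in control mouse 1 was at 59.7 CPM, with the other 3 control mice at 55.7 to 56.4 CPM. In the control nuclei of cluster 19, Vgll4 was at 0 CPM in 1 mouse and at 101 to 106 CPM in the others. Lats1 was at 22.9 CPM in 1 control mouse in cluster 10, with the others at 44.1 to 48.2 CPM, and at 26.4 CPM in 1 control mouse in Ex_L2/3_Enpp2-like nuclei, with the others at 39.6 to 41.0 CPM.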

How the results depend on the processing

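Over 34 single values and 504 comparisons with an alternative, 460 kept their direction and their side of the threshold, 15 lost the threshold, 8 gained it and 21 changed direction. The bulk value of Cyr61 stayed between -1.91 and -1.63 when each mouse was left out. The number of the 9 genes called in bulk was 1, and 1 to 2 when each mouse was left out (2 without control mouse 1, with Lats2). For the pathway lists the bulk count was 3; it was 5 with the likelihood ratio test, 5 with DESeq2, 5 without the count filter and 1 to 10 when each mouse was left out (10 without control mouse 3, 1 without control mouse 2 or CUS mouse 4), while the count over all genes went from 606 to 1330, 1402 and 780 under those settings, 133 without control mouse 2, 1508 without control mouse 3 and 148 without CUS mouse 4. In all nuclei 0 of the 9 genes was called, 1 without the count filter (with 309 genes called over all 36464, against 1 of 5018), and 0 to 1 when each mouse was left out (1 without CUS mouse 2, Vgll4). In layer 2/3 it was 1, and 0 to 1 when each mouse was left out (0 without control mouse 2, CUS mouse 3 or CUS mouse 4). Of the gene and class pairs 1 was called, and 0 to 3 when each mouse was left out (3 without CUS mouse 2; 0 without control mouse 2, CUS mouse 3 or CUS mouse 4).

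Directions that changed were those of small values, and the cause was not tested. Tead2 in bulk was -0.0032 without TMM factors. Without the doublet filter, Lats1 in layer 2/3 was -0.015, and Vgll4 was -0.19 in Microglia-like and -0.095 in OPC-like nuclei; with at least 1000 genes per nucleus, Vgll4 in cluster 19 was -0.23. When each mouse was left out, log2 fold changes ran from -0.13 to 0.028 for Vgll4 in bulk, from -0.091 to 0.24 for Tead2, from -0.011 to 0.21 for Tead4, from -0.048 to 0.049 for Lats1 in all nuclei, and for Vgll4 from -0.16 to 0.16 in Ex_L5/6-like, from -0.26 to 0.37 in Microglia-like, from -0.25 to 0.74 in cluster 19 and from -0.10 to 0.47 in OPC-like nuclei.

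Replicate numbers were not shown to pair the mice: same-numbered control and CUS mice correlated in their deviations at 0.037, 0.146, 0.025 and 0.087 in bulk and at 0.364, -0.067, 0.399 and -0.452 in nuclei. With the replicate number as a block, 1 pathway gene (Cyr61) of 238 genes in all was called in bulk, 2 gene and class pairs were called, the added one being Vgll4 in cluster 4 (-0.76, adjusted p = 0.132) while calls over all genes and classes went from 115 to 336, and Vgll4 in Ex_L5/6-like nuclei turned to 0.025.

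Depth limits the nuclei: Cyr61 had 276 UMIs over 8 mice, and 7 of the 9 genes fell under the count filter in the sum over all nuclei. Housing room and treatment cannot be told apart.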
